A study of Mus musculus with 6 samples.

Results

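SNARE proteins and the factors that work with them form the machinery that fuses transport vesicles, granules and lysosomes with their target membranes. The transcripts of 42 genes of this machinery were followed in mouse cultures treated with C89 or with DMSO. The members were the rows of the deposited table whose gene symbol was 1 of the 42 names. Of these, 41 had a row among the 54231 genes used, and no row had the symbol Stx10. The 38 members that averaged at least 1 normalized count over the 6 libraries were tested, out of 18954 genes tested in all. The cultures are labelled as female germ line stem cells, a name for dividing germ cells taken from the ovary and grown in culture. The C89 group had 3 libraries from cultures given C89, a compound known here by its code name alone. The DMSO group had 3 libraries of the control group, named for the solvent. RNA was taken at 8 h in both groups. Strain, age, dose and the origin of the replicates are not in the labels, and the spread behind each p-value is that among these libraries, possibly technical.

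SNAREs sit on both of the membranes that are to fuse. An R-SNARE, usually a VAMP protein on the vesicle, winds together with Q-SNAREs, a syntaxin and a SNAP25-type protein or a pair of shorter Q-SNAREs, on the target membrane. Proteins of the Sec1/Munc18 family hold syntaxins and guide their assembly, Munc13 proteins prime vesicles, synaptotagmins sense calcium, and the ATPase NSF with its adaptor alpha-SNAP takes spent complexes apart. In mast cells, where granules are released on stimulation, Stx4, Snap23, Vamp8, Stxbp2 and Unc13d are known parts of granule fusion. Stx17, Snap29 and Vamp8 are known for the fusion of autophagosomes with lysosomes.

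Markers did not bear out the label of the cultures. Of 12 germ cell marker genes 9 had any read and 3 averaged at least 10 normalized counts, and their summed level was 149 to 221 normalized counts in C89 and 189 to 258 in DMSO libraries. The germ cell genes Dazl, with no read, and Ddx4, with C89 libraries at 6.20, 2.03 and 0 and DMSO libraries at 2.67, 0.797 and 1.59, were at or near 0. Mast cell markers were abundant, with a summed level of 97511 to 108790 in C89 and 53024 to 64269 in DMSO libraries over 12 genes. Of the 12, 10 had reads and 6 averaged at least 10 normalized counts. Kit and Cpa3 were high, while Ms4a2 had no read and Fcer1a had 1 read in all. Fibroblast markers summed to 66.4 to 152 in C89 and to 154 to 2429 in DMSO libraries over 10 genes, 8 of them with reads, and the third DMSO library held the lowest DMSO sum. Macrophage markers summed to 3721 to 3988 in C89 and 1801 to 2710 in DMSO libraries over 8 genes, 7 with reads, with Adgre1 high and Csf1r at 0 to 2.55 in both groups. Platelet markers, with 5 of 7 genes read, summed to 4122 to 4205 in C89 and 4039 to 4272 in DMSO libraries, nearly all of it Itga2b. Neuronal markers summed to 24.4 to 51.4 in C89 and 16.7 to 19.1 in DMSO libraries over 10 genes, 8 with reads, and Rbfox3 had none. Granulosa and thecal markers, with 4 of 8 genes read, summed to 215 to 242 in C89 and 74.9 to 92.3 in DMSO libraries. The mast cell, macrophage, fibroblast, neuronal and granulosa sums did not overlap between the groups. Their part in the results below was not tested, and in bulk RNA fewer cells of a type and less RNA per cell cannot be told apart.

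Libraries held 17938295, 7772060 and 12479644 recovered reads in C89 and 21763459, 17849625 and 17826569 in DMSO. Between C89 libraries 2 and 3, 0 of 35 members differed beyond sampling noise, while 7 to 16 members did in each of the other pairs of libraries of a group. Over all genes 0.67% differed between these libraries and 24.8 to 47.2% in those other pairs. The chi-square over its degrees of freedom was 1.63 for C89 libraries 2 and 3 and 9.08 to 27.0 for the other pairs. This value cannot show whether the 2 libraries are independent. Both stayed in the fit, as 2 of the 3 C89 libraries. Counts of calls with both merged into 1 library are given as well.

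Of the 38 tested members, 10 changed at an adjusted p under 0.05 (limma on log2(normalized count + 1), Benjamini-Hochberg over all genes tested). Stx2, Stx8, Stx12, Stx16, Vti1a and Nsf rose, and Stx4a, Stx11, Stx5a and Syt11 fell. This is 26.3% of the tested members, beside 26.1% of all genes tested, so the share of members that changed was that of the background. For rises the background was 12.5% and for falls 13.6%. Of the 33 members averaging at least 100 normalized counts, 9 changed (27.3%), beside 39.6% of all genes at that level. The families given below hold few genes each, and their counts of calls were not tested against these shares. The groups did not overlap in 16 members, 11 higher and 5 lower in C89, beside 40.9% of all genes tested (19.9% higher and 21.0% lower). The median log2 fold change was 0.14 over the tested members and -0.03 over all genes tested. In the authors' deposited table, 9 of the 36 members with an adjusted p were under 0.05, 5 higher and 4 lower, beside a background of 29.2%, and all 9 are among the 10. Vti1a is the other one, with 0.0602 in the authors' deposited table. On the recovered reads, edgeR and DESeq2 called 9 members each, beside 24.5% and 28.9% of all genes.

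Counts of calls depended on single libraries, among the members and among all genes. Leaving out C89 library 1, 2 or 3 left 5, 6 and 5 called members, beside 21.3%, 15.4% and 13.8% of all genes. Leaving out DMSO library 1, 2 or 3 left 11, 3 and 2, beside 24.9%, 12.2% and 19.2% of all genes. Without the third DMSO library none of the rises passed, and the 2 that passed were Stx4a and Stx11. With C89 libraries 2 and 3 merged, 7 members passed, 3 higher and 4 lower, beside 17.3% of all genes. Scaling by total reads gave 1 member higher (Nsf) and 6 lower, the 4 named above with Stx18 and Unc13d, beside 29.6% of all genes. Of all calls, 27.0% were then higher, against 47.8% with the deposited scaling, and the median log2 fold change of genes averaging at least 100 was -0.17, against -0.02.

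**Figure D1:**
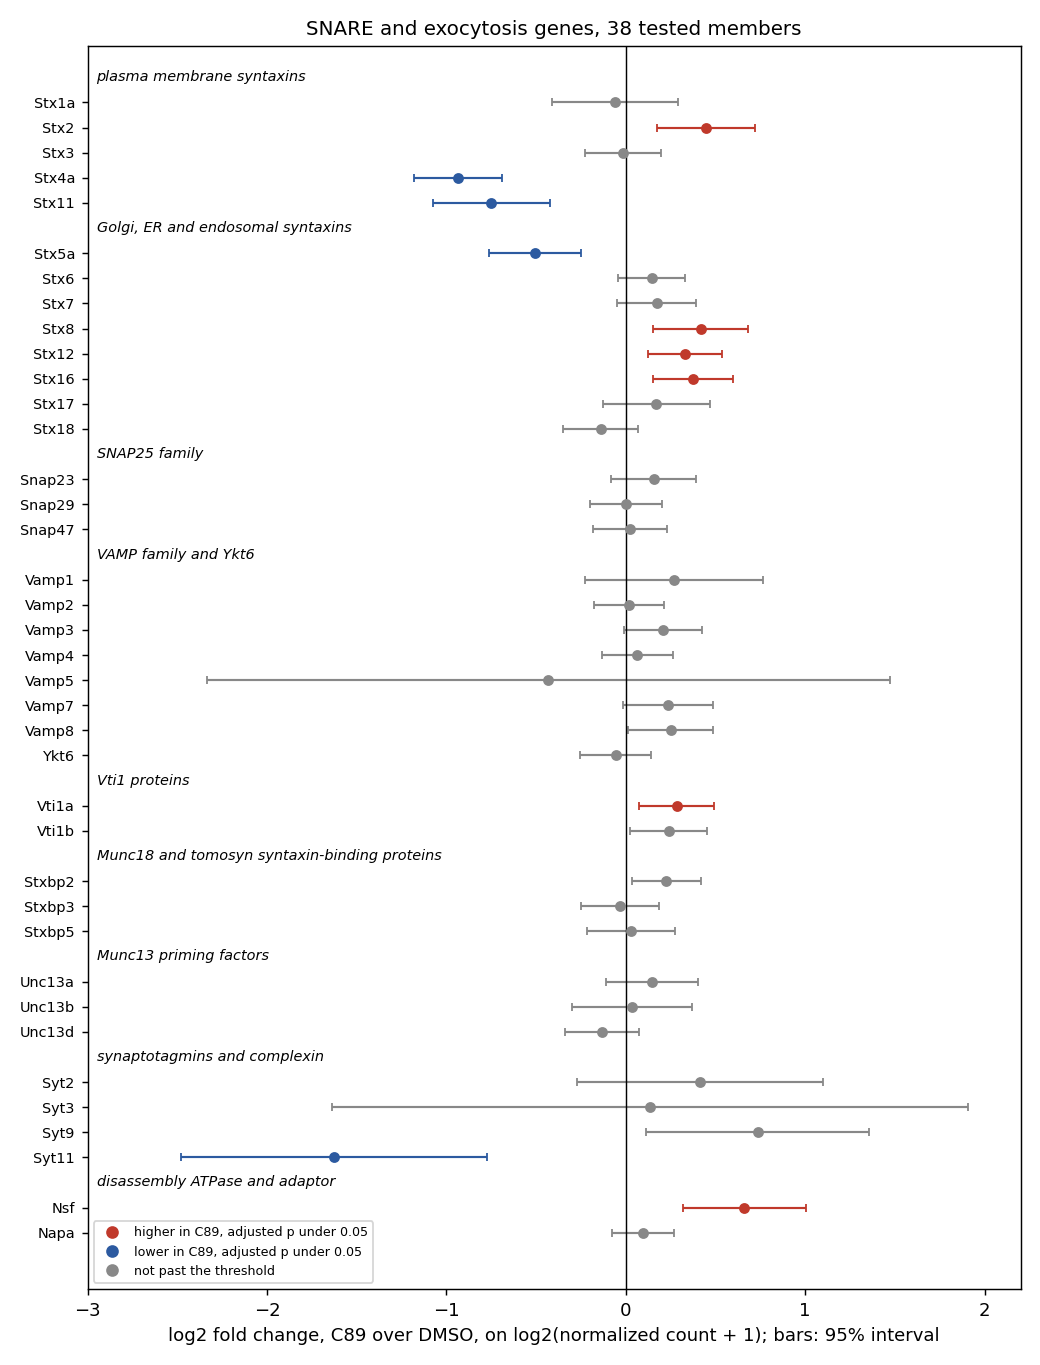
Log2 fold change of the 38 tested members, C89 over DMSO, on the log2(normalized count + 1) scale, with 95% intervals from limma, grouped by role. The 4 members that fell (blue) and the 6 that rose (red) stand clear of 0. The intervals are not adjusted for the number of genes tested, and those of Vamp8, Vti1b, Stxbp2 and Syt9 (grey) also exclude 0. The members with few reads, Vamp5 and Syt3, have the widest intervals.

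The bases upstream of the start site are shown for Stx4a and Stx11, the members that stayed past the threshold in all 16 alternative settings, and for Nsf, the largest rise among those that passed. They are the 250 bases before the annotated start, from RefSeq on build GRCm38.p6, written 5′ to 3′ on the gene's strand. The capitals mark matches, on either strand, to any of 5 motifs. The E-box was searched as CACGTG and the GC box as GGGCGG, the CCAAT box by the letters of its name, the AP-1 motif as TGANTCA and the GATA motif as AGATAA.
Stx4a, chr7:127841558-127841807, plus strand: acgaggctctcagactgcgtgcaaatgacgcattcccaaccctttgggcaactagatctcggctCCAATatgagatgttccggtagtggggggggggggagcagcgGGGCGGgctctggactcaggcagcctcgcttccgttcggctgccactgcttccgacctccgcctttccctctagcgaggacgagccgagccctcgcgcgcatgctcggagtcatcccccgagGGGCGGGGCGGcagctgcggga
Stx11, chr10:12964260-12964509, minus strand: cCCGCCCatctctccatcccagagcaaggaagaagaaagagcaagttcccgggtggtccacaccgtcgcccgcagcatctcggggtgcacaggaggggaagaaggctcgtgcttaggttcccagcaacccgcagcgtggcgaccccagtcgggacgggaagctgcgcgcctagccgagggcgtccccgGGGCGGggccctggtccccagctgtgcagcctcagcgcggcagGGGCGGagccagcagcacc
Nsf, chr11:103954057-103954306, minus strand: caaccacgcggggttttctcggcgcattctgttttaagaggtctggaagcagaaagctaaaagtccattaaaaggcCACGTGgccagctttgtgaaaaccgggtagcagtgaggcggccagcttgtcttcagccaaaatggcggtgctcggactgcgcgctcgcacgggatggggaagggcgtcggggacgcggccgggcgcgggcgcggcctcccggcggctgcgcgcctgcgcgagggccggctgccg
Stx4a held 1 CCAAT box and 3 GC boxes, of which the last 2 share a base, Stx11 held 3 GC boxes, and Nsf held 1 E-box. Over 43 such windows of 36 members, 26 held a GC box (60.5%), 16 a CCAAT box (37.2%), 6 an E-box (14.0%), 1 an AP-1 motif (2.33%) and 2 a GATA motif (4.65%). Over all 32851 windows the shares were 32.7% for the GC box, 33.8% for the CCAAT box, 6.02% for the E-box, 6.75% for the AP-1 motif and 9.99% for the GATA motif. Most member windows were richer in G and C than 52.4%, the median of all windows, as Stx4a was at 66.4%. Some were not, such as Vamp8 at 43.6%. The shares were not compared at matched G and C content or matched expression, so they show no trait particular to these genes. These are matches of letters and show no binding.

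Among the syntaxins of the plasma membrane, which receive granules and secretory vesicles, 2 fell, 1 rose and 2 did not pass. All 5 averaged at least 100 normalized counts, a level at which 39.6% of all genes passed. Stx4a (ENSMUSG00000030805), which encodes the syntaxin used widely outside neurons and in mast cell granule release, had 494, 589 and 678 normalized counts in C89 libraries, against 1145, 1108 and 1089.8 in DMSO libraries. Each C89 library lay far below each DMSO library. Stx4a averaged 587 ± 91.8 in C89 and 1114 ± 28.2 in DMSO (SD, n = 3 each), a log2 fold change of -0.93 (SE 0.11, limma adjusted p = 1.63e-04). Its adjusted p stayed between 1.60e-10 and 0.0242 over the 16 alternatives.

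Stx11 (ENSMUSG00000039232), an immune cell syntaxin needed in human cytotoxic lymphocytes for granule release, had 147, 119.9 and 169 normalized counts in C89 libraries, against 239, 237 and 252 in DMSO libraries. The groups were well apart, with a log2 fold change of -0.75 (SE 0.15, limma adjusted p = 0.00331; 9.24e-04 to 0.0474 over the alternatives). Stx2 (ENSMUSG00000029428), a syntaxin with roles in secretion and at the end of cell division, went the other way, with 422, 419 and 344 in C89 libraries, against 312, 292 and 263 in DMSO libraries. All C89 libraries lay above all DMSO libraries, with the third C89 library closest to them. Its log2 fold change was 0.45 (SE 0.13, limma adjusted p = 0.0194), which was lost when C89 library 1 (0.0695) or 2 (0.0956) or DMSO library 2 (0.0927) or 3 (0.0734) was left out, and with scaling by total reads (0.091).

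The other plasma membrane syntaxins overlapped between the groups. Stx3, a syntaxin of apical and granule membranes, had 842, 866 and 739 normalized counts in C89 libraries, against 869, 806 and 791 in DMSO libraries. Stx1a, the syntaxin of nerve terminals, had 133, 126 and 121 in C89 libraries, against 112, 148 and 139 in DMSO libraries. The 95% interval of the log2 difference was -0.22 to 0.20 for Stx3 and -0.41 to 0.29 for Stx1a.

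Set against each other within a library, where scaling drops out, the 5 plasma membrane syntaxins had another balance in the C89 group. Per kb of exon, Stx4a made up 39.2, 43.9 and 49.7% of their summed level in C89 libraries, against 60.3, 59.7 and 59.97% in DMSO libraries. Stx2 made up 17.3, 16.1 and 13.0% in C89 libraries, against 8.47, 8.12 and 7.45% in DMSO libraries. Stx3 had 25.6 ± 2.78% in C89 and 18.3 ± 0.544% in DMSO libraries (SD, n = 3 each). The groups did not overlap in these shares, nor in that of Stx1a, at 7.87 to 9.34% in C89 and 5.23 to 7.08% in DMSO libraries. Shares of the same sum depend on each other, so a fall of Stx4a raises those of the others. In normalized counts Stx3 and Stx1a had log2 fold changes of -0.01 and -0.06. Their larger shares thus come from the smaller sum and are no separate change. These shares and the ratios between genes given here were chosen after the values of the single genes were seen, so they are a description with no test. Stx4a stood 1.42, 1.65 and 2.22 times as high as Stx3 per kb in C89 libraries, against 3.18, 3.32 and 3.33 times in DMSO libraries.

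**Figure D2:**
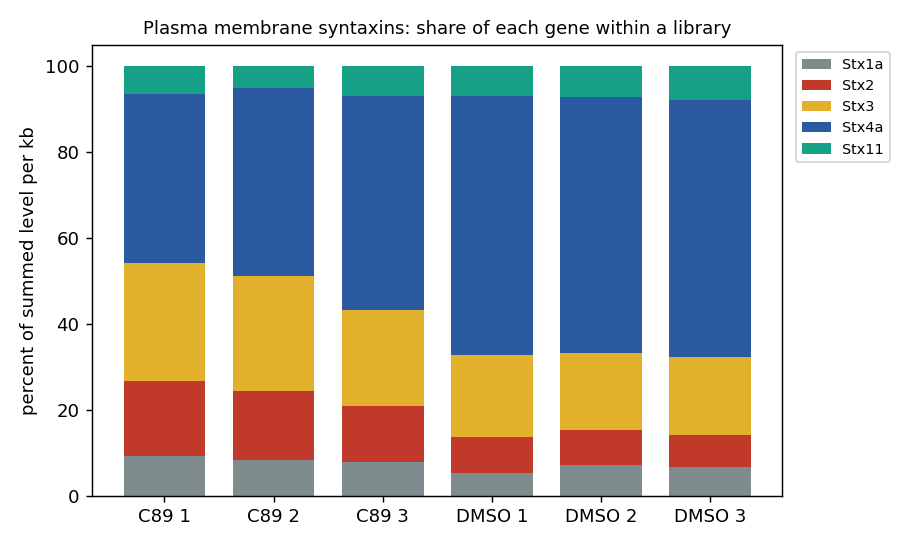
Share of each of the 5 plasma membrane syntaxin genes in their summed level per kb of exon, in percent, for each library. Stx4a takes 39.2 to 49.7% in the C89 libraries and 59.7 to 60.3% in the DMSO libraries, and Stx2 takes 13.0 to 17.3% in C89 and 7.45 to 8.47% in DMSO.

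Among the syntaxins of the Golgi, ER and endosomes 3 of 8 rose, 1 fell and 4 did not pass. All 8 averaged at least 100 normalized counts, a level at which 39.6% of all genes passed. Stx5a (ENSMUSG00000010110), the syntaxin of transport from the ER to the Golgi, had 662, 791 and 800.1 normalized counts in C89 libraries, against 902, 1127 and 1181 in DMSO libraries. The first library was the lowest in both groups, and the groups did not overlap. The log2 fold change of Stx5a was -0.51 (SE 0.12, limma adjusted p = 0.00778), and the call was lost without the second DMSO library (0.101) or the third (0.0529).

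The 3 rises were of syntaxins of endosomes and the trans-Golgi network. Stx16, which works in transport from endosomes back to the trans-Golgi network, had 1157, 1018 and 1091 normalized counts in C89 libraries, against 745, 929.9 and 852 in DMSO libraries (log2 fold change 0.37, SE 0.10, limma adjusted p = 0.0182). Stx8, a late endosome syntaxin, had 396, 396 and 372 in C89 libraries, against 317, 308 and 249.97 in DMSO libraries (log2 fold change 0.42, SE 0.12, limma adjusted p = 0.0240). Stx12, a syntaxin of recycling endosomes, had 856, 823 and 828 in C89 libraries, against 703, 689 and 604 in DMSO libraries (log2 fold change 0.33, SE 0.10, limma adjusted p = 0.0228). In each of the 3 the groups did not overlap, and the ratio of group means was 1.29 for Stx16, 1.33 for Stx8 and 1.26 for Stx12. None kept its call without the first C89, the third C89 or the third DMSO library. The adjusted p was then 0.0653, 0.0861 and 0.052 for Stx16, 0.0658, 0.073 and 0.0691 for Stx8, and 0.0587, 0.0793 and 0.0605 for Stx12. Stx8 and Stx12 also missed the threshold without the second C89 library (0.094 and 0.0725) or the second DMSO library (0.0741 and 0.0629), and Stx16 without the first DMSO library (0.0542). Scaling by total reads gave 0.131 for Stx16, 0.116 for Stx8 and 0.172 for Stx12. With C89 libraries 2 and 3 merged, Stx8 (0.0723) and Stx12 (0.0693) did not pass.

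Vti1a (ENSMUSG00000024983), a Q-SNARE of the trans-Golgi network and a known partner of Stx16, had 655, 622 and 609 normalized counts in C89 libraries, against 537, 519 and 493 in DMSO libraries. The groups did not overlap, but the change was the smallest among the 10, with a log2 fold change of 0.28 (SE 0.10, limma adjusted p = 0.0456). It passed in 4 of the 16 alternatives and not in edgeR (adjusted p = 0.051) or DESeq2 (0.0637) on the recovered reads, with C89 libraries 2 and 3 merged (0.0994) or with scaling by total reads (0.32). Without the first, the second or the third C89 library it was at 0.102, 0.107 and 0.0915, and without the second or the third DMSO library at 0.0885 and 0.0912. Vti1b, its late endosome counterpart, had 1124, 1185 and 1280.4 in C89 libraries, against 1130.3, 986 and 931 in DMSO libraries, which overlapped (adjusted p = 0.0976; 0.0331 without the first DMSO library). In the GENCODE M21 annotation 17.7% of the exonic bases of Vti1b are shared with Arg2 on the opposite strand.

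Stx6 and Stx7, of the trans-Golgi network and late endosomes, did not overlap between the groups but missed the threshold. Stx6 had 994, 979.5 and 984 normalized counts in C89 libraries, against 929, 896 and 853 in DMSO libraries (adjusted p = 0.251). Stx7 had 524, 478 and 512 in C89 libraries, against 457, 466 and 420.3 in DMSO libraries (adjusted p = 0.244). Stx18, which serves transport back to the ER, had 523, 561 and 577 in C89 libraries, against 611, 635 and 584 in DMSO libraries (adjusted p = 0.321). Stx18 was lower in all C89 libraries than in any DMSO library, but its 95% interval, -0.35 to 0.07, lay on both sides of no change. It passed with scaling by total reads (0.0406), and 32.3% of its exonic bases are shared with other genes on the opposite strand.

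**Figure D3:**
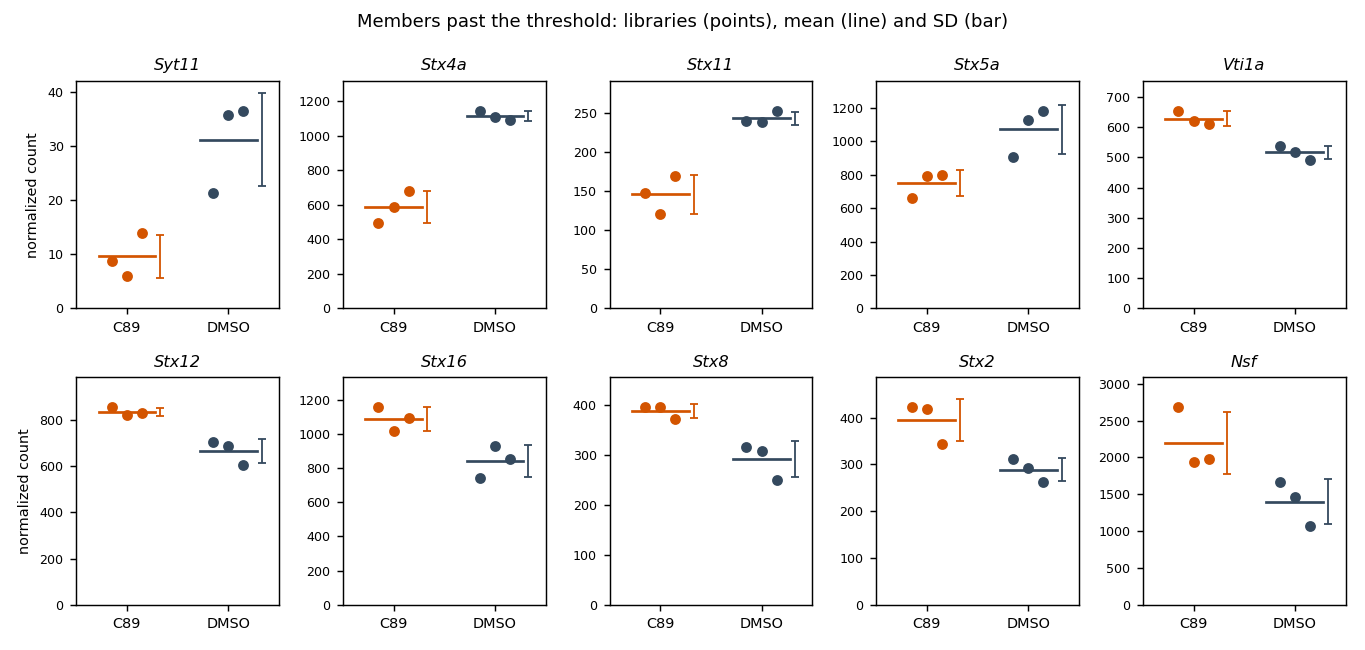
Normalized counts of the 10 members past the threshold in each library, with group mean (line) and SD (bar) of 3 libraries, on axes that start at 0. In all 10 panels the C89 and DMSO points do not overlap, as in 40.9% of all genes tested. The 10 were picked by adjusted p from these same libraries, so the lack of overlap adds no evidence. Stx4a lies at 494 to 678 in C89 and 1089.8 to 1145 in DMSO.

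The SNAP25 family, which supplies a pair of helices to each complex at the plasma membrane, held no change past the threshold. Only 3 of its genes were tested, at a level where 39.6% of all genes passed (a mean of at least 100). Snap23, the form used outside neurons and in mast cells, had 1632, 1254 and 1325 normalized counts in C89 libraries, against 1297, 1320.3 and 1148 in DMSO libraries (log2 fold change 0.15, 95% interval -0.08 to 0.39). Snap29 had 802, 829 and 747 in C89 libraries, against 756, 819.9 and 798 in DMSO libraries. Snap47 had 977, 1114 and 1119 in C89 libraries, against 1014, 1137 and 1007 in DMSO libraries. All 3 overlapped between the groups. Snap25, the neuronal form, had no read in C89 libraries and 1 read in DMSO libraries. With 3 reads over a group as the limit that a count of 0 allows, this leaves up to 1.25 normalized counts in the C89 group, for counting error only.

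The vesicle SNAREs did not pass in any of 8 cases. Of all genes averaging at least 100 normalized counts, the level of all but Vamp5, 39.6% passed. Vamp8, the R-SNARE of mast cell granules and autophagosome fusion, had 1255, 1364 and 1376 normalized counts in C89 libraries, against 1324, 1029 and 1029 in DMSO libraries. The first DMSO library lay among the C89 libraries, and the log2 fold change was 0.25 (95% interval 0.01 to 0.48, limma adjusted p = 0.112; 0.0127 without the first DMSO library). Vamp3, the broadly used form, had 1012, 941 and 1094 in C89 libraries, against 969.6, 845 and 826 in DMSO libraries (adjusted p = 0.150). Vamp7, the R-SNARE of lysosome fusion, had 408, 471 and 451 in C89 libraries, against 379, 414 and 338 in DMSO libraries (adjusted p = 0.156). These 3 leaned higher with overlapping groups. Vamp2 had 705, 729.6 and 747 in C89 libraries, against 696, 720.3 and 737 in DMSO libraries, and Vamp4, of the trans-Golgi network, had 741, 827 and 768 against 750.2, 743 and 741. Ykt6, a lipid-anchored R-SNARE of the Golgi and of autophagosomes, had 1826, 1831 and 1873 in C89 libraries, against 2152, 1818 and 1798 in DMSO libraries. The 95% intervals of Vamp2, Vamp4 and Ykt6 lay between -0.25 and 0.26. Vamp1 had 182, 124 and 109.6 in C89 libraries, against 122, 139 and 82.8 in DMSO libraries, with an interval up to 0.76. Vamp5, known from muscle, had 2 reads in all C89 libraries and 7 in all DMSO libraries.

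Stx17, which brings autophagosomes to lysosomes, had 399, 329 and 282 normalized counts in C89 libraries, against 281, 311 and 297 in DMSO libraries. The groups overlapped, with the third C89 library among the DMSO libraries, and the log2 fold change was 0.17 (95% interval -0.13 to 0.47, limma adjusted p = 0.396). Of all genes averaging at least 100 normalized counts, 39.6% passed the threshold. Of the SNAREs known for autophagosome fusion, Stx17, Snap29, Vamp7, Vamp8 and Ykt6, all at that level, none passed it. In the 16 alternatives, Vamp8 passed without the first DMSO library (log2 fold change 0.37, adjusted p = 0.0127) and the others in none.

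The proteins that hold and prime SNAREs moved little. Stxbp2, the Munc18 form of mast cells and cytotoxic cells, had 1954, 2162 and 2278 normalized counts in C89 libraries, against 1867, 1872 and 1723 in DMSO libraries. The groups did not overlap, with a log2 fold change of 0.23 (95% interval 0.03 to 0.42, limma adjusted p = 0.0808; 0.0409 without the first C89 library). Stxbp3, the Munc18 form that binds Stx4, had 404, 421 and 432 in C89 libraries, against 421, 437 and 427 in DMSO libraries. It stayed level in the same libraries in which Stx4a fell, with a 95% interval of -0.25 to 0.19 for its log2 difference. Stxbp5, the inhibitor tomosyn, had 2796, 2040.3 and 2119 in C89 libraries, against 2141, 2327 and 2287 in DMSO libraries, with the first C89 library above all others. Unc13d, the Munc13 form of granule release in blood cells, had 722, 732 and 777 in C89 libraries, against 771, 795 and 882 in DMSO libraries. Unc13a had 259, 291 and 274 in C89 libraries, against 235, 259.8 and 248 in DMSO libraries. Unc13b had 291, 215 and 194 in C89 libraries, against 221, 225 and 228 in DMSO libraries. None of the 3 Munc13 genes passed, and their groups overlapped.

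The calcium sensors were low. Syt11 (ENSMUSG00000068923), a synaptotagmin that does not bind calcium and is known to restrain secretion and phagocytosis in macrophages and glia, had 8.86, 6.10 and 14.0 normalized counts in C89 libraries, against 21.3, 35.9 and 36.6 in DMSO libraries. This rests on 24 reads in C89 and 123 in DMSO libraries. The groups did not overlap, with a log2 fold change of -1.63 (SE 0.39, limma adjusted p = 0.00909), and the call was lost without the second DMSO library (0.0942) or the third (0.056). Syt9 had 93.0, 81.3 and 59.9 in C89 libraries, against 50.7, 63.7 and 29.5 in DMSO libraries, which overlapped (adjusted p = 0.0782). Syt2, a calcium sensor of fast release with a known role in mast cells, had 31.9, 22.4 and 22.9 in C89 libraries, against 18.7, 15.9 and 22.3 in DMSO libraries (adjusted p = 0.369). Syt3 had 9 reads in each group. Syt1 had no read, and Cplx2, a complexin with a known role in mast cell release, had 1 read in C89 and none in DMSO libraries.

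Nsf (ENSMUSG00000034187), which encodes the ATPase that takes SNARE complexes apart, was the largest rise among the members that passed. It had 2682, 1941 and 1972 normalized counts in C89 libraries, against 1672, 1459.7 and 1065 in DMSO libraries. The first library was the highest in both groups, the third DMSO library was the lowest of all, and the groups did not overlap. Nsf averaged 2198 ± 419 in C89 and 1399 ± 308 in DMSO (SD, n = 3 each), a log2 fold change of 0.66 (SE 0.16, limma adjusted p = 0.00871). The call was lost without the first C89 library (0.0519), the third (0.0518), the second DMSO library (0.107) or the third (0.0584). Napa, its adaptor alpha-SNAP, had 1666, 1658 and 1596 in C89 libraries, against 1529.7, 1544 and 1524 in DMSO libraries, a log2 fold change of 0.10 (95% interval -0.08 to 0.27). The ratio of Nsf to Napa was 1.61, 1.17 and 1.24 in C89 libraries, against 1.09, 0.945 and 0.699 in DMSO libraries.

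In 23 of the 24 members averaging at least 100 normalized counts that did not pass, the 95% interval of the log2 difference lay within 0.585 on either side of 0, which is a change of 1.5-fold. The exception was Vamp1. The median coefficient of variation over the 33 members of that level was 6.37% in C89 and 5.43% in DMSO libraries. The closely alike C89 libraries 2 and 3 enter the C89 value. Some members varied more, such as Nsf at 2198 ± 419 in C89 and 1399 ± 308 in DMSO. Members also differed beyond sampling noise in each pair of libraries of a group other than C89 libraries 2 and 3.

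Levels were set against each other per kb of exon, with exon lengths from GENCODE M21, for the 35 members with a mean of at least 10 and a known length. Vamp7 was not ranked. Vti1b, at 742 ± 48.9 normalized counts per kb in C89 and 630.1 ± 63.9 in DMSO, Ykt6, at 618 ± 8.57 and 644 ± 66.7, and Vamp8, at 576 ± 28.8 and 488 ± 73.9, held the 3 highest ranks in both groups (SD, n = 3 each). Stx4a was at 248 ± 38.8 per kb in C89, the 12th level of the 35, and at 471 ± 11.9 in DMSO, the 4th, where Vamp8 above it was within its own SD of it. Nsf was at 263 ± 50.2 per kb in C89, rank 10, and at 168 ± 36.9 in DMSO, rank 16. The lowest ranks were held by Syt2 and Syt11 in both groups. The annotation's union of exons may not match the transcripts these cells use.

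**Figure D4:**
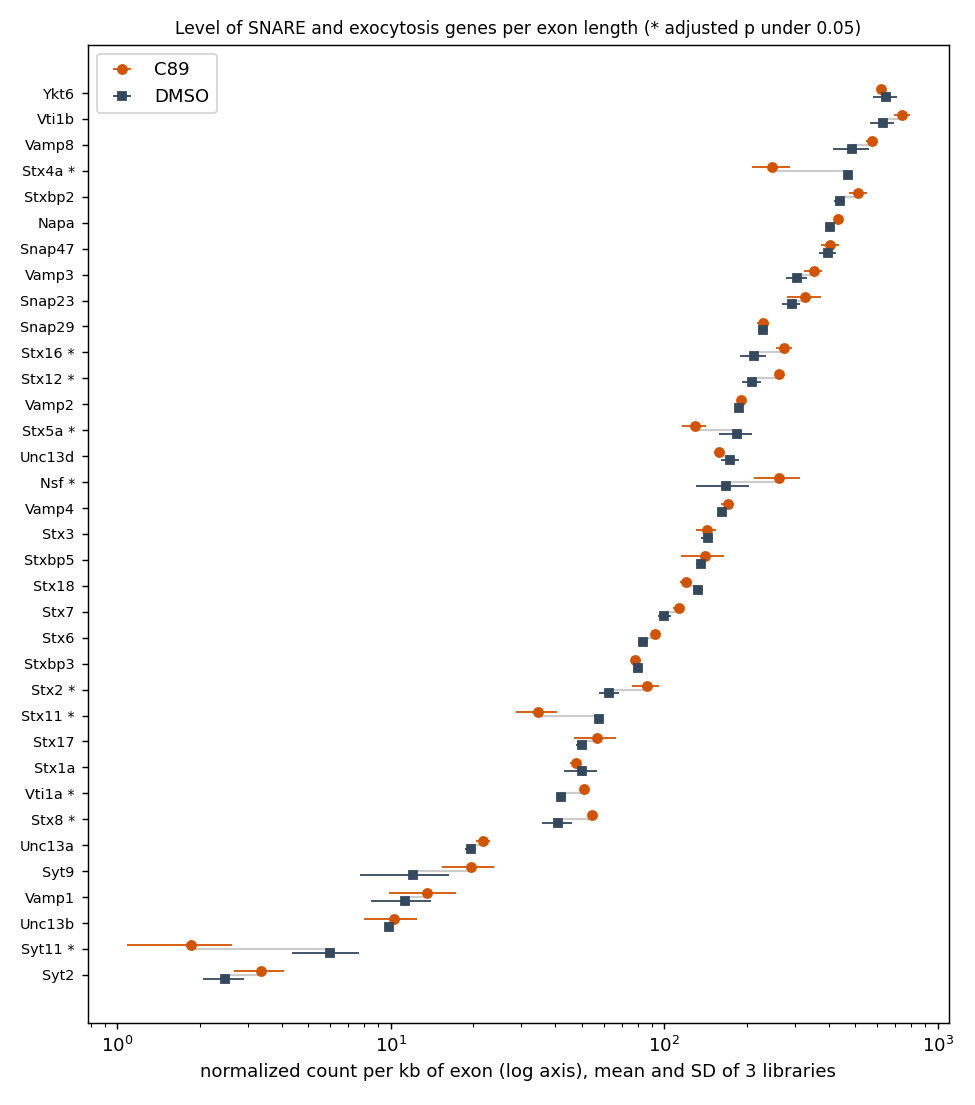
Mean normalized count per kb of exon, on a log axis, for 35 members in C89 (circles) and DMSO (squares), with SD of 3 libraries, sorted by the DMSO level; asterisks mark members past the threshold. Most pairs lie on top of each other, while Stx4a stands at 248 in C89 and 471 in DMSO and Nsf at 263 in C89 and 168 in DMSO.

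Of 77 other genes of SNARE-dependent transport with a row, 54 were tested, of which 6 rose and 8 fell, or 25.9%, beside 26.1% of all genes. The exocyst, the complex that tethers secretory vesicles to the plasma membrane before SNAREs engage, had 3 rises and 3 falls among 11 tested genes. That is 54.5%, beside 39.6% of all genes averaging at least 100 normalized counts, the level of most of these. Exoc6b (ENSMUSG00000033769) had 2435, 2219 and 2149 normalized counts in C89 libraries, against 912, 967 and 729.999 in DMSO libraries. It was more than doubled in the ratio of means, 2.61, with a log2 fold change of 1.39 (SE 0.11, limma adjusted p = 1.02e-05). Its paralog Exoc6 had 517, 476 and 474 in C89 libraries, against 673, 727 and 783 in DMSO libraries (log2 fold change -0.57, adjusted p = 0.00149). The ratio of Exoc6b to Exoc6, a pair picked for its opposite changes, was 4.71, 4.67 and 4.54 in C89 libraries, against 1.36, 1.33 and 0.932 in DMSO libraries.

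Exoc8 had 437, 380.02 and 371 normalized counts in C89 libraries, against 705, 694 and 884 in DMSO libraries (log2 fold change -0.94, limma adjusted p = 2.14e-04). Exoc7 had 483, 388 and 496 in C89 libraries, against 752, 762 and 699 in DMSO libraries (log2 fold change -0.70, limma adjusted p = 9.05e-04). Exoc6b, Exoc6, Exoc7 and Exoc8 passed in the same direction in all 16 alternatives. Exoc2 and Exoc4 rose less, with log2 fold changes of 0.32 and 0.33 (adjusted p = 0.0211 and 0.0294). Exoc2 missed the threshold without any 1 library other than the first DMSO library (0.0509 to 0.0643), and Exoc4 without the second C89 (0.112), the third C89 (0.107), the second DMSO (0.0824) or the third DMSO library (0.08). Neither passed with C89 libraries 2 and 3 merged (0.0537 and 0.102) or with scaling by total reads (0.185 and 0.194). The other 5 exocyst genes tested, Exoc1, Exoc3 and Exoc5 among them, did not pass, and Exoc1 was lower with scaling by total reads (0.033).

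**Figure D5:**
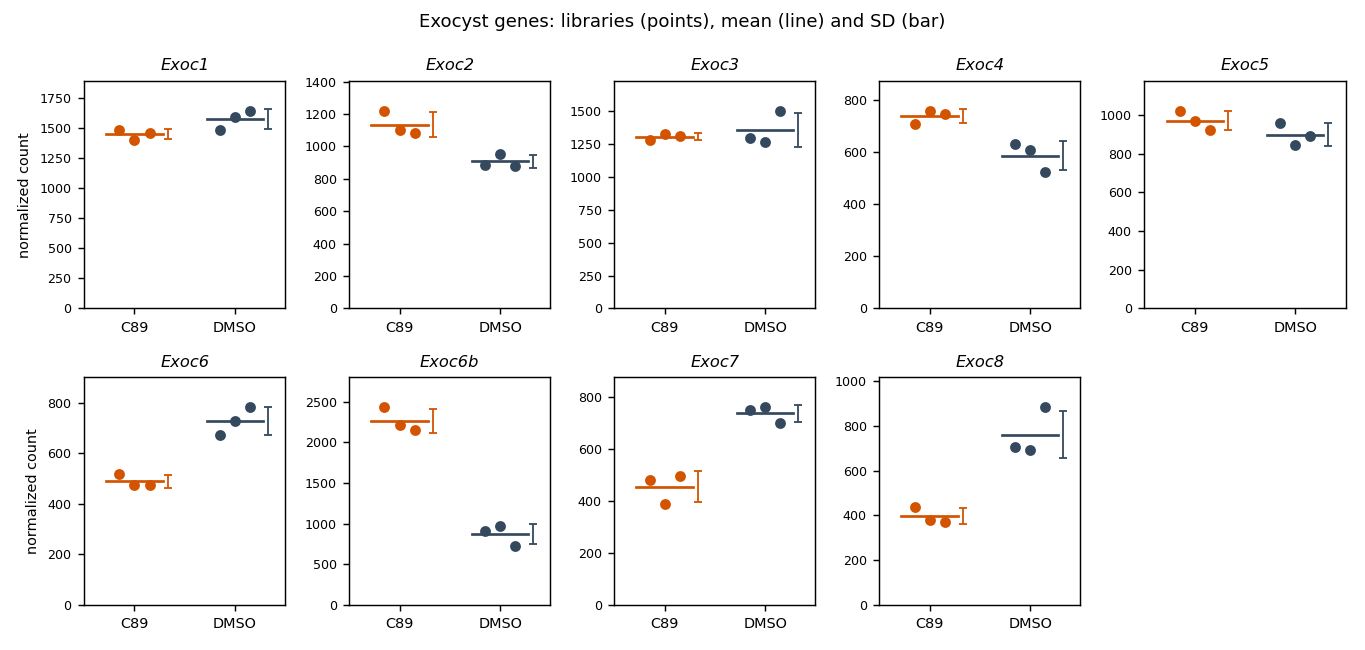
Normalized counts of the 9 exocyst genes with a mean of at least 100 in each library, with group mean (line) and SD (bar) of 3 libraries, on axes that start at 0. Exoc6b lies at 2149 to 2435 in C89 and 729.999 to 967 in DMSO, while Exoc6, Exoc7 and Exoc8 are lower in all C89 libraries than in any DMSO library.

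Among syntaxin binders not on the member list, Snapin, a SNAP25-binding subunit of a lysosome positioning complex, had 299, 382 and 367 normalized counts in C89 libraries, against 532, 562 and 601 in DMSO libraries (log2 fold change -0.70, limma adjusted p = 0.00122). Stxbp4 fell with -0.62 (adjusted p = 0.0174), but not when C89 library 2 (0.107) or 3 (0.0629) or DMSO library 2 (0.149) or 3 (0.1) was left out, or with C89 libraries 2 and 3 merged (0.0624). In the annotation 15.5% of the exonic bases of Snapin are shared with Ilf2 on the opposite strand.

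Of the other calcium sensors and priming factors, 13 of 32 were tested. Of these 13, 2 rose and 1 fell (23.1%), beside 26.1% of all genes tested. Sytl3, a Rab27 effector of the synaptotagmin-like family, had 719, 715 and 735 normalized counts in C89 libraries, against 440.1, 503 and 394 in DMSO libraries (log2 fold change 0.70, limma adjusted p = 6.97e-04). It passed in all 16 alternatives. Rph3al, another Rab effector of exocytosis, had 70.9, 65.0 and 85.4 in C89 libraries, against 36.7, 45.4 and 31.8 in DMSO libraries (adjusted p = 0.00954; 0.0676 without the third C89 library). Sytl2 had no read in C89 libraries and 3.33, 6.37 and 2.39 normalized counts in DMSO libraries, from 16 reads. Its DMSO mean was 3.23 times a floor of 3 reads over the C89 group. The spread of the DMSO libraries does not enter that value. The limma adjusted p was 0.0296, and 0.0542 to 0.0687 without any 1 of the C89 libraries or the first DMSO library. DESeq2 on the recovered reads gave no adjusted p for Sytl2.

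Of 10 other SNAREs tested, 1 passed, a fall, beside 26.1% of all genes tested. Most of these SNAREs averaged at least 100 normalized counts, a level at which 39.6% of all genes passed. Bnip1, an ER SNARE, had 230.3, 229.6 and 279 normalized counts in C89 libraries, against 329, 352 and 339.9 in DMSO libraries (log2 fold change -0.47, limma adjusted p = 0.0136; 0.0682 without the second C89 and 0.0783 without the second DMSO library). Sec22c and Sec22a came next by p, at log2 fold changes of -0.36 (adjusted p = 0.0623) and 0.32 (0.0794). Sec22c passed without the first DMSO library (0.0297) and with scaling by total reads (0.0133). Of 7 tethers of the HOPS and CORVET complexes, which act at endosomes and lysosomes, 1 fell (14.3%), beside 26.1% of all genes tested. It was Tgfbrap1, with a log2 fold change of -0.38 (limma adjusted p = 0.0199). That call was lost without the second C89 (0.0991), the third C89 (0.111), the second DMSO (0.0717) or the third DMSO library (0.0784), and with C89 libraries 2 and 3 merged (0.0918). Vps41 and Vps16 were next, at 0.23 (adjusted p = 0.091) and 0.24 (0.108), and passed without the first DMSO library (0.032 and 0.042).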

How the data were processed

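RNA sequencing of 6 libraries was used. Per the labels' protocol, mRNA libraries were sequenced from both ends, and kits of more than 1 maker are named. The submitters' processing notes name HISAT2 and DESeq2, and their versions, the genome build, the annotation, the counting tool and its strand setting are not stated. The authors deposited 1 table with a signal per library, read counts divided by a size factor of that library. Whole reads within a tolerance of 0.01 read came out for all 119020 nonzero values (100%). Its log2 fold changes and adjusted p-values are the authors' own, per the file headers. Of 54232 genes 1 was dropped for a text entry among its values. A further 6 unnamed columns were not used.

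As the values were normalized, the planned fallback was run, limma's trended fit (version 3.58.1, R 4.3.3) of group alone on log2(value + 1). It took genes whose mean reached 1, and calls were made at 0.05 after Benjamini-Hochberg adjustment. Folds on this scale understate changes of low genes. limma called 4946 genes, while edgeR 4.0.16 and DESeq2 1.42.0, run as alternatives on recovered reads, called 4652 and 4511. The fits were tried on simulated data, with independent libraries, known scaling and the same spread beyond counting noise for all genes. Such data cannot show what closely alike libraries or the choice of scaling do to the calls. Members in full are those past the threshold or with a mean of at least 100, and other genes are the 3 of lowest p per list, with further exocyst genes chosen after their values were seen. A gene that this rule names is not reported here. The members and lists were chosen with earlier results of these data known. Exon lengths and overlaps come from GENCODE M21, in which 40 of 41 members were found. Reads carry no molecular identifiers here, so floors cover counting error only. Figures were drawn with matplotlib 3.10.9.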

Additional observations from a re-analysis of the deposited data

How the results depend on the processing

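Over 16 alternatives (tool, scaling, low-value filter, pseudocount, replicate block, combined libraries and each library left out), none of the 38 tested members and 14 called pathway genes changed sign in a setting where it, or the fit reported, passed the threshold. Results for these genes stayed on the same side of the threshold in 737 cases, lost the call in 83 and gained it in 6. Gains of other named pathway genes are given with them. Leaving out 1 library gave 2 to 11 called members (0 to 7 higher, 2 to 4 lower), 7 to 17 other pathway genes (2 to 8 higher, 4 to 9 lower) and 2303 to 4711 of all genes (1151 to 2347 higher, 1152 to 2364 lower), where fewer samples entered. With C89 libraries 2 and 3 merged, 3 members were called higher, 9 other pathway genes were called, 3 of them higher, and 3273 genes were called in all, 1548 higher. With scaling by total reads, 1 member was called higher, other pathway genes numbered 3 higher and 16 lower, and all genes 1514 higher and 4100 lower; the cause was not tested. With the replicate number as a block, 9 members (5 higher, 4 lower), 12 other pathway genes and 4092 genes in all were called; Stx12 (0.0514), Vti1a (0.0965), Exoc2 (0.0538), Exoc4 (0.0621) and Sytl2 (0.06) were then above the threshold and Syt9 (0.0472) under it. Same-numbered libraries did not deviate together (r = -0.189, -0.178 and 0.023 over 10483 genes), no C89 library correlated best with its own number, and the numbers were not taken as pairs. Depth limits members and pathway genes of few reads, such as Syt3, Vamp5 and Sytl2. In the second C89 library 1 read is worth 2.03 normalized counts.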
